A study of Homo sapiens with 12 samples.

Results

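The comparison set AC16 cells harvested right after a second 24 h pulse of interferon against AC16 cells that had met interferon once and were then left without it. It used 6 of the 12 libraries of the study, 3 labelled repeat and 3 labelled recovery, chosen by these labels alone, and every gene of the count table. Repeat cells received recombinant human IFN-α2a at 1000 U/mL for 24 h, 4 days without it and then 24 h with it again. Recovery cells received the same dose for 24 h and 5 days without it. The other 6 libraries were 3 acute ones, harvested at the end of a first 24 h pulse, and 3 vehicle ones, given PBS for 24 h, and they serve here as the first pulse to which the second is set. All 12 libraries carry the same cell line, a wild-type genotype and 1 batch label. The labels place the harvest of recovery cells on day 6 and that of repeat cells on day 7, although the stated times of both regimens add to the same 6 days. Interferon and any difference in harvest day therefore cannot be told apart in this comparison. The study's text names a DMEM/F-12 medium in one place and an RPMI medium in another, and gives vehicle for equivalent intervals while each vehicle library is labelled 24 h.

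AC16 is a line made by fusing human ventricular cardiomyocytes with a transformed fibroblast line, and it is labelled as a cardiomyocyte. Its defining markers were nearly absent: 5 of 20 cardiomyocyte markers passed the filter on low counts, and TNNT2, which encodes cardiac troponin T, had at most 1 count in any repeat library and at most 3 in any recovery library. The summed level of the cardiomyocyte markers was 17.5 to 18.4 CPM (counts per 1000000, scaled between libraries) in repeat and 20.4 to 20.5 CPM in recovery libraries, most of it the transcription factor GATA4 (12.9 ± 0.506 CPM in repeat and 16.6 ± 0.456 CPM in recovery libraries). Fibroblast markers were abundant, with 12730.4 to 13077 CPM summed over 12 genes in repeat and 13405 to 13528 CPM in recovery libraries. Bulk libraries give 1 value for all cells of a dish, so fewer cells of a kind and less RNA per cell cannot be told apart in any result here.

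Type I interferons bind the receptor pair IFNAR1 and IFNAR2 and activate the kinases JAK1 and TYK2. These phosphorylate STAT proteins, among them STAT2, which acts with IRF9 in a complex called ISGF3 that binds a DNA element, the interferon-stimulated response element (ISRE), before many genes. Their products block virus entry, replication and release, sense foreign RNA and DNA, and present peptides to T cells. Among them are inhibitors of the same signal, such as USP18 and SOCS1.

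The promoters of 8 of the genes with the largest rises are printed here because these genes moved together and because the ISRE is the element through which ISGF3 acts. Each window runs from 250 bases before to 30 bases after a transcription start in RefSeq (build GRCh38.p14), 5′ to 3′ on the gene's strand. Capitals mark matches, on either strand, to the core of the ISRE spelled GAAA, then any 2 bases, then GAAA, and matches may overlap.
IFI44L promoter, chr1:78620198-78620477, plus strand: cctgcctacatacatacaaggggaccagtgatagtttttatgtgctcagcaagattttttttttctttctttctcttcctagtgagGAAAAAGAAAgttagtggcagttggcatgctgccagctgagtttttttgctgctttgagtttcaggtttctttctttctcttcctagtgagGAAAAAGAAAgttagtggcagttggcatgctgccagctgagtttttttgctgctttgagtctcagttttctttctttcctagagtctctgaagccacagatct
BST2 promoter, chr19:17405601-17405880, minus strand: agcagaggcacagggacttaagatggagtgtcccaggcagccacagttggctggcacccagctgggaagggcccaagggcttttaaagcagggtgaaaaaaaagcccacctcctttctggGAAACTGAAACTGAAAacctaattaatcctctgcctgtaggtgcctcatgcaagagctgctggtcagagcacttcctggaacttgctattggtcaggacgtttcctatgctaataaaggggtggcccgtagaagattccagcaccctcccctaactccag
IFI27 promoter, chr14:94110486-94110765, plus strand: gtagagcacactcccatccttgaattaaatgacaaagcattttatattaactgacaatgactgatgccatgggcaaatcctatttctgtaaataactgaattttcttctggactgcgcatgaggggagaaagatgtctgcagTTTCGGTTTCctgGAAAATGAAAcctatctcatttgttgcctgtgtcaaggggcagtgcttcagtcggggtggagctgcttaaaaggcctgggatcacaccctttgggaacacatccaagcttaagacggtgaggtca
OAS1 promoter, chr12:112906712-112906991, plus strand: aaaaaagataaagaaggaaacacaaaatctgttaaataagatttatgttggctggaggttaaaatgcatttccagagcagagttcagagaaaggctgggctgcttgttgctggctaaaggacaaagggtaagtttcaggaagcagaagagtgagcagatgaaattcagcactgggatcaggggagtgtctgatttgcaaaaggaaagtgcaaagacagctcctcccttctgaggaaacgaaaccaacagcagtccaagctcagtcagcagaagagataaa
MX1 promoter, chr21:41420308-41420587, plus strand: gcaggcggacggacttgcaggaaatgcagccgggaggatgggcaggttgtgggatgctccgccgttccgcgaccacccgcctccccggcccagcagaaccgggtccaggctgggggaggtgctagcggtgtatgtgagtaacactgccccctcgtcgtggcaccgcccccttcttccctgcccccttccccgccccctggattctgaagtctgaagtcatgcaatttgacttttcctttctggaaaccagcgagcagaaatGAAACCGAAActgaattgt
LGALS9 promoter, chr17:27630938-27631217, plus strand: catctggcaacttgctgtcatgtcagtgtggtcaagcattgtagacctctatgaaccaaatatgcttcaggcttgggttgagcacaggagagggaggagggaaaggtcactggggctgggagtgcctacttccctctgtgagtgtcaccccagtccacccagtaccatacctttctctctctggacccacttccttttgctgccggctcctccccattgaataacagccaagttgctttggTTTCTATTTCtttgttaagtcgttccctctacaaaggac
IFITM1 promoter, chr11:313790-314069, plus strand: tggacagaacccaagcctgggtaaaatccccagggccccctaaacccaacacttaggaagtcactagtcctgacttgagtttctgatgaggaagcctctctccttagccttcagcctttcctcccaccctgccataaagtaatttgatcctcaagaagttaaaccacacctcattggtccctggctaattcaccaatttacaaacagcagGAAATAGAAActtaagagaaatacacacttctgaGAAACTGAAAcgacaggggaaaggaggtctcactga
IFI6 promoter, chr1:27672163-27672442, minus strand: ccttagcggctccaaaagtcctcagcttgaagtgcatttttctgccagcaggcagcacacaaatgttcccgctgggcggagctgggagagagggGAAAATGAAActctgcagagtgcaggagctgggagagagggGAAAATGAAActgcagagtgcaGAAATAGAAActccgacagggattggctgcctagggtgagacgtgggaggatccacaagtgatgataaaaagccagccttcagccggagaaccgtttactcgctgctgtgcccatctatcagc
Of these 8 windows 7 held the core. BST2 carried 2 overlapping copies, beginning 130 and 124 bases before the start, and IFI6 carried 3. In MX1 the match began at transcribed base 12, and in LGALS9 and in 1 of the 2 IFI27 matches it lay on the opposite strand. The OAS1 window held none, which says only that these letters are not in it. Over all 35116 promoter windows of the same length, 1192 (3.39%) held the core, and 2564 (7.3%) held TTC, any 3 bases and GAA, the core of the element bound by STAT dimers. A share for all genes that rose could not be given, since 63.9% of the genes called at least 2-fold higher had a promoter in the table, under the 80% set as the least. A match is a description of the sequence and not evidence that a factor binds there. 

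Depth was 48.77 to 62.28 M estimated counts (1 M is 1000000) in repeat and 44.42 to 48.43 M in recovery libraries, and 39.94 to 62.28 M over all 12. The first principal component held 40% of the variance and placed repeat libraries at 30.7 to 31.9 and recovery libraries at -26.8 to -25.7. Acute libraries lay at 27.6 to 30.7 and vehicle libraries at -36.5 to -32.1. Repeat replicate 3 had 1101 genes with a count in it alone, against 261 to 432 in every other library, but their median count was 1 and they held 0.0035% of its counts. Of 18119 genes tested, 7546 passed an adjusted p of 0.05 between repeat and recovery cells in edgeR's quasi-likelihood test with Benjamini-Hochberg adjustment (41.6%), 3824 higher (21.1%) and 3722 lower (20.5%). Most changes were small: 336 genes rose at least 2-fold (1.85%) and 135 fell at least 2-fold (0.745%). Beyond 1.5-fold, tested against that limit by glmTreat, 423 genes changed (2.33%), 321 of them higher and 102 lower. Strong rises outnumbered strong falls, with 113 genes higher and 13 lower at least 4-fold, and 25 higher at least 16-fold. With upper quartile scaling 3312 genes were called higher and 4243 lower, so the direction that held more genes overall depended on the scaling. On log2(TPM + 0.5), called log2 TPM from here on, 3812 genes passed. When the gene length implied by the deposited counts and TPM entered as an offset, called the length offset, 3971 did. In the rest of the text rose and fell are said only of genes past the threshold in edgeR, and the counts over lists depend on the fit: with the length offset 38 of the 56 lists held fewer calls, and on log2 TPM 39 did. Each count over a list is to be read beside the 21.1% of all genes that rose and the 20.5% that fell.

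The largest rises among genes eligible for naming were mostly in antiviral genes, and the first 3 of them were under 1 CPM in every recovery library. Eligible genes had a symbol, a mean of at least 5 CPM in the higher group and no overlap between groups. IFI44L (ENSG00000137959.17, plus strand of chromosome 1 at 78619902 to 78646145), a member of the IFI44 family that is widely used to score interferon activity, had 178, 169 and 167 CPM in the repeat libraries, against 0.538, 0.693 and 0.800 CPM in the recovery libraries. All 3 repeat libraries lay far above all 3 recovery libraries, and the log2 fold change was 7.97 ± 0.062 (SE, adjusted p = 7.97e-35). SE is here the change divided by the square root of its F statistic, and it is too small for genes with few counts in a group. BST2 (ENSG00000130303.14, minus strand of chromosome 19 at 17402939 to 17405630), also called tetherin, holds budding virions at the cell surface and had 114, 122 and 112 CPM after the second pulse, against 0.560, 0.628 and 0.492 CPM in recovery cells. Its recovery libraries were all under 1 CPM, and its log2 fold change was 7.69 ± 0.097 (adjusted p = 3.69e-18). IFI27 (ENSG00000165949.12, plus strand of chromosome 14 at 94104836 to 94116695), which encodes a small mitochondrial protein, had 68.2, 70.8 and 70.1 CPM in the 3 repeat libraries and 0.314, 0.281 and 0.451 CPM in the 3 recovery libraries, a log2 fold change of 7.62 ± 0.082 (adjusted p = 8.53e-32). These first 3 genes were expressed in every repeat library and sat near the bottom of the tested range in every recovery library. OAS1 (ENSG00000089127.15, plus strand of chromosome 12 at 112905856 to 112933219), an enzyme that makes 2-5A oligoadenylates when it binds double-stranded RNA, had 290.0, 289 and 287 CPM in the repeat libraries, against 2.11, 1.99 and 2.03 CPM in the recovery libraries, a log2 fold change of 7.14 ± 0.051. MX2 (ENSG00000183486.14, plus strand of chromosome 21 at 41361999 to 41409393), a GTPase that hinders nuclear import of HIV-1, had 271, 261 and 267 CPM after the second pulse, against 3.21, 1.82 and 2.15 CPM in recovery cells, a log2 fold change of 6.81 ± 0.095. MX1 (ENSG00000157601.15, plus strand of chromosome 21 at 41420020 to 41470071), its neighbour and the GTPase that blocks influenza virus, had 792, 799 and 814 CPM in the 3 repeat libraries and 7.82, 7.19 and 8.02 CPM in the 3 recovery libraries, a log2 fold change of 6.71 ± 0.071. In each of these the groups were separated by a wide gap, while the 3 repeat libraries lay close together.

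**Figure D1:**
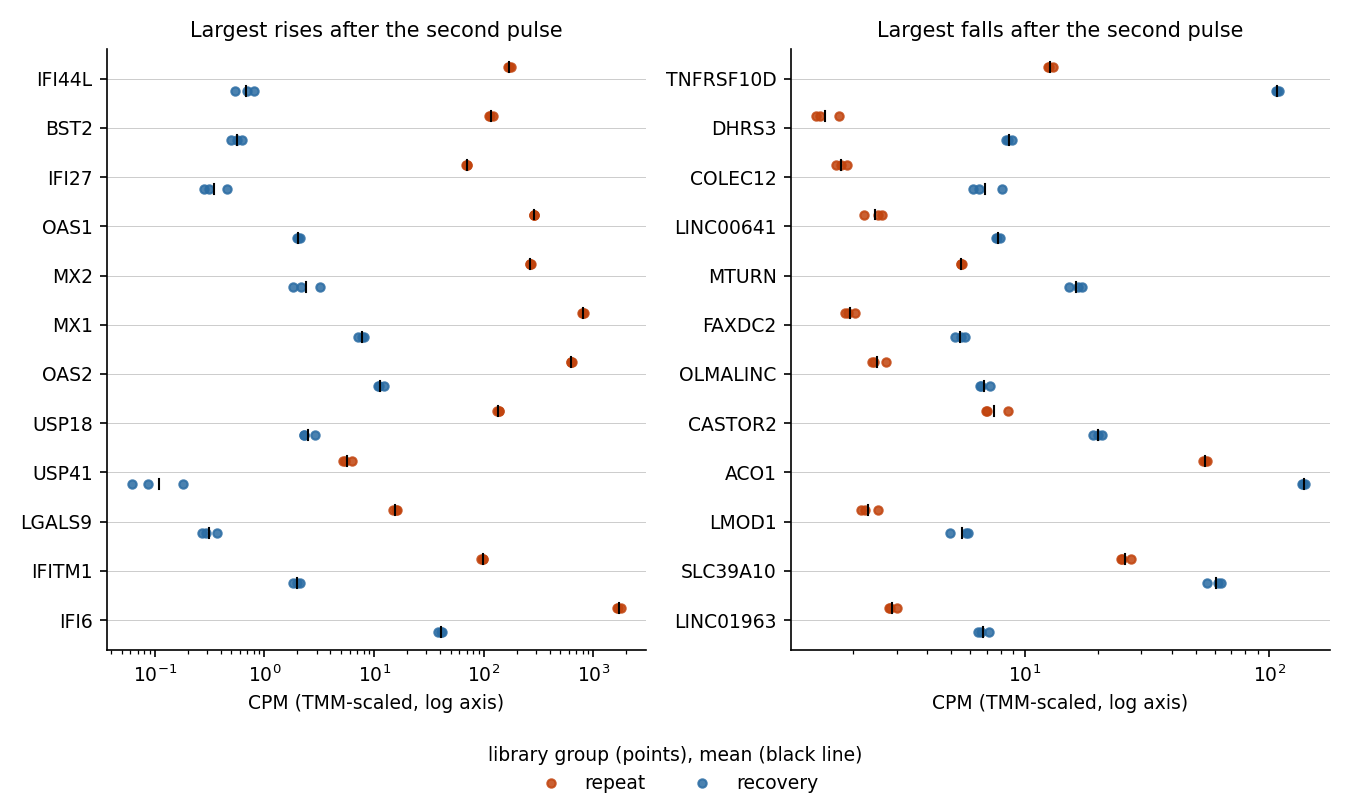
CPM (TMM-scaled, log axis) in each repeat and recovery library (points) with the group mean (black line), for the 12 genes with the largest rise (left) and the 12 with the largest fall (right). In both panels repeat and recovery libraries do not overlap for any gene drawn, which the rule for naming them required. IFI44L averaged 171 CPM in repeat and 0.677 CPM in recovery libraries, and TNFRSF10D averaged 12.7 CPM in repeat and 108 CPM in recovery libraries.

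The next of the largest rises included further antiviral genes. OAS2 (ENSG00000111335.14, plus strand of chromosome 12 at 112978395 to 113011723) had 637, 619.8 and 619.6 CPM in the repeat libraries, against 11.05, 10.96 and 12.3 CPM in the recovery libraries, a log2 fold change of 5.77 ± 0.031. LGALS9 (ENSG00000168961.17, plus strand of chromosome 17 at 27629798 to 27649560), which encodes the secreted lectin galectin-9, had 15.9, 16.2 and 14.8 CPM after the second pulse, against 0.291, 0.368 and 0.267 CPM in recovery cells, a log2 fold change of 5.65 ± 0.12. IFITM1 (ENSG00000185885.17, plus strand of chromosome 11 at 310041 to 315272), a membrane protein that hinders fusion of viruses with the cell, had 98.9, 98.96 and 94.2 CPM in the 3 repeat libraries and 1.84, 1.97 and 2.11 CPM in the 3 recovery libraries, a log2 fold change of 5.62 ± 0.062. IFI6 (ENSG00000126709.16, minus strand of chromosome 1 at 27666064 to 27672212), which inhibits flavivirus replication, had the highest level in recovery cells among these 12 genes. It had 1691, 1794 and 1643 CPM in the repeat libraries, against 41.7, 38.5 and 41.1 CPM in the recovery libraries, a log2 fold change of 5.403 ± 0.041. USP41, listed as a pseudogene nearly identical to USP18, had 5.41, 5.21 and 6.26 CPM in the 3 repeat libraries and 0.179, 0.0866 and 0.0615 CPM in the 3 recovery libraries, and reads of the pair may be split between them by the counting. Of all genes tested 49.4% had repeat and recovery libraries that did not overlap, so the lack of overlap in these genes is not particular to them.

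The parts of the signalling chain did not move alike. STAT2 and IRF9 rose, the receptor genes IFNAR1 and IFNAR2 did not pass the test, and the kinase gene JAK1 fell. STAT2, a carrier of the signal, had 178, 169.5 and 181 CPM after the second pulse, against 55.7, 54.3 and 54.5 CPM in recovery cells, a log2 fold change of 1.68 ± 0.035 (adjusted p = 2.24e-19). IRF9, the DNA-binding part of ISGF3, had 78.2, 78.0 and 78.6 CPM in the 3 repeat libraries and 14.5, 13.9 and 14.6 CPM in the 3 recovery libraries, a log2 fold change of 2.45 ± 0.035. Both were thus higher in every repeat library than in any recovery library. The receptor gene IFNAR1 had 77.4, 76.7 and 77.8 CPM in the repeat libraries, against 79.6, 78.1 and 79.2 CPM in the recovery libraries, with each repeat library just below each recovery library and a log2 fold change of -0.031 ± 0.026 (adjusted p = 0.388). IFNAR2 had 22.0, 22.9 and 20.4 CPM after the second pulse, against 20.5, 23.3 and 24.4 CPM in recovery cells, a log2 fold change of -0.062 ± 0.053 (adjusted p = 0.388). Neither receptor chain passed the threshold, although IFNAR2 did, at -0.13, without recovery replicate 1. JAK1, the kinase bound to IFNAR2, had 209, 202 and 212 CPM in the 3 repeat libraries and 266, 254 and 256 CPM in the 3 recovery libraries, a log2 fold change of -0.32 ± 0.023, and fell. TYK2, the kinase bound to IFNAR1, had 86.9, 84.3 and 87.7 CPM after the second pulse, against 81.4, 81.7 and 78.3 CPM in recovery cells, a log2 fold change of 0.10 ± 0.029. Of 13 receptor and JAK-STAT genes 6 rose and 2 fell, with a median log2 fold change of 0.10, against -0.00034 over all genes tested, and with the length offset 4 rose and 1 fell. The interferon gamma receptor genes IFNGR1 (0.35 ± 0.038) and IFNGR2 (0.11 ± 0.031) were among those that rose, and STAT3, JAK2 and STAT5A did not pass. The call of TYK2 was lost with the length offset.

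Among the IRF transcription factors, IRF7, which drives a further round of interferon genes, had 69.7, 71.1 and 68.0 CPM in the repeat libraries, against 7.15, 7.75 and 7.36 CPM in the recovery libraries, a log2 fold change of 3.23 ± 0.047. IRF1, an activator of interferon and inflammatory genes, had 35.1, 36.2 and 35.5 CPM after the second pulse, against 26.1, 26.5 and 26.0 CPM in recovery cells, a smaller log2 fold change of 0.44 ± 0.043. Of 8 IRF family genes tested 5 rose and 1 fell, and on log2 TPM 3 rose and with the length offset 2. IRF4, IRF5 and IRF8, which belong to blood cells, were under the filter. The feedback inhibitors went both ways. USP18 (ENSG00000184979.10, plus strand of chromosome 22 at 18150118 to 18177397), which removes ISG15 from proteins and also binds IFNAR2 to damp the signal, had 137, 139 and 133 CPM in the 3 repeat libraries and 2.31, 2.30 and 2.89 CPM in the 3 recovery libraries, a log2 fold change of 5.76 ± 0.082 (adjusted p = 5.32e-15). SOCS1, an inhibitor of the JAK kinases, had 5.02, 4.51 and 4.93 CPM in the repeat libraries, against 2.42, 2.71 and 2.62 CPM in the recovery libraries, a log2 fold change of 0.90 ± 0.11 (adjusted p = 1.13e-07). SOCS3 (53.9 ± 1.62 CPM in repeat and 52.4 ± 2.14 CPM in recovery libraries) and SOCS2 (6.36 ± 0.185 CPM in repeat and 6.34 ± 0.361 CPM in recovery libraries) did not pass. TRIM21, an antibody receptor in the cytosol that also marks IRFs for degradation, had 50.7, 50.9 and 52.9 CPM after the second pulse, against 11.2, 9.66 and 9.80 CPM in recovery cells, a log2 fold change of 2.34 ± 0.047. PTPN11, a phosphatase also known as SHP2, had 299.6, 290.4 and 307 CPM in the repeat libraries, against 394, 389 and 397 CPM in the recovery libraries, a log2 fold change of -0.40 ± 0.021, and fell. Of 10 feedback genes 3 rose and 3 fell, and on log2 TPM 1 fell.

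Nearly all members of the antiviral families rose, and their lists had medians above those of the signalling and stress lists. All 5 tested genes of the OAS family and PDE12 rose, with a median log2 fold change of 4.61, against 21.1% of all genes. OAS3, the OAS enzyme that senses long RNA, had 1442, 1376 and 1419 CPM in the 3 repeat libraries and 58.1, 59.5 and 56.2 CPM in the 3 recovery libraries, a log2 fold change of 4.61 ± 0.029. OASL, a relative without enzyme activity, was already well expressed in recovery cells and had 249, 246 and 241 CPM after the second pulse, against 92.6, 92.2 and 101 CPM in recovery cells, a log2 fold change of 1.36 ± 0.042. PDE12, which degrades 2-5A, moved by 0.087 ± 0.034 (adjusted p = 0.0414). The OAS genes thus ranged from a log2 fold change of 7.14 in OAS1 to one of 1.36 in OASL among the members named here. All 5 IFIT genes rose (median 2.38); these proteins bind RNA with foreign 5′ ends. IFIT1 had 528, 537 and 542 CPM in the 3 repeat libraries and 43.5, 42.3 and 44.2 CPM in the 3 recovery libraries, a log2 fold change of 3.63 ± 0.030. IFIT3 had 523, 541 and 543 CPM after the second pulse, against 131, 124 and 136 CPM in recovery cells, a log2 fold change of 2.04 ± 0.036, and IFIT2 had one of 1.73 ± 0.038. IFIT1B, a near copy of IFIT1, was under 1 CPM in both groups. The call of PDE12 was lost with upper quartile scaling, without a count filter, with the length offset, on log2 TPM, in DESeq2, in the fit of 6 libraries and without recovery replicate 1, recovery replicate 3, repeat replicate 1, repeat replicate 2 or repeat replicate 3.

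Genes that act at membranes rose in 7 of 8 cases (median 3.39), among them CH25H, which makes 25-hydroxycholesterol, from low levels (0.245 ± 0.0748 CPM in repeat and 0.0862 ± 0.0379 CPM in recovery libraries, log2 fold change 1.496 ± 0.58, adjusted p = 0.0402). IFITM3, which blocks virus entry from endosomes, had 386, 398 and 349 CPM in the repeat libraries, against 48.8, 46.5 and 50.7 CPM in the recovery libraries, a log2 fold change of 2.96 ± 0.052, and IFITM2 had one of 2.22 ± 0.030. The 3 IFITM genes are near copies of each other, so reads may be shared among them. RSAD2, or viperin, which makes a chain-terminating nucleotide, had 31.1, 30.1 and 31.2 CPM after the second pulse, against 2.53, 1.69 and 2.34 CPM in recovery cells, a log2 fold change of 3.81 ± 0.085. Its neighbour CMPK2, a nucleotide kinase that supplies viperin, had 30.3, 30.3 and 30.7 CPM in the 3 repeat libraries and 1.10, 0.866 and 1.29 CPM in the 3 recovery libraries, a log2 fold change of 4.80 ± 0.078. The annotated ends of RSAD2 (chromosome 2, 6865557 to 6898239) and CMPK2 (6840570 to 6866635) overlap on opposite strands, and whether counting used the strand is not given in the sources used here, so reads of the overlap cannot be assigned. SERINC5, an inhibitor of retroviral infectivity in the same list, did not pass (-0.069 ± 0.039, adjusted p = 0.17). ISG15 and the enzymes that attach it rose in 6 of 6 cases (median 2.93). ISG15, a ubiquitin-like modifier, had 702, 742 and 677 CPM in the repeat libraries, against 65.2, 67.6 and 68.3 CPM in the recovery libraries, a log2 fold change of 3.40 ± 0.031. Its activating enzyme UBA7 (2.65 ± 0.075), conjugating enzyme UBE2L6 (2.81 ± 0.040) and ligase HERC5 (1.79 ± 0.040) rose with it. The modifier and its 3 classes of conjugating enzyme were thus all higher in repeat cells. The call of CH25H was lost with the replicate block, with the length offset, on log2 TPM and without recovery replicate 1, recovery replicate 3, repeat replicate 1 or repeat replicate 2.

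The 9 tested genes of the IFI6, IFI27 and IFI44 families and their neighbours in the list all rose (median 2.43). IFI44 had 264, 277 and 278 CPM in the repeat libraries, against 49.4, 49.6 and 53.03 CPM in the recovery libraries, a log2 fold change of 2.43 ± 0.030, and unlike IFI44L it was well expressed in all 3 recovery libraries. IFI16, a nuclear DNA sensor, had 393, 396 and 402 CPM after the second pulse, against 101, 99.2 and 101 CPM in recovery cells, a log2 fold change of 1.98 ± 0.021, and IFI35 had one of 3.11 ± 0.038. IFI27L2, a relative of IFI27, moved by only 0.31 ± 0.057. Of 21 other interferon-stimulated genes 20 rose (median 2.273), and CD38 (-0.50 ± 0.58, adjusted p = 0.54) did not pass. XAF1, which promotes apoptosis by binding XIAP, had 148, 141 and 148 CPM in the 3 repeat libraries and 4.26, 3.66 and 4.63 CPM in the 3 recovery libraries, a log2 fold change of 5.12 ± 0.047. BATF2, a transcription factor of the AP-1 group, had 7.80, 8.62 and 7.05 CPM in the repeat libraries, against 0.224, 0.411 and 0.185 CPM in the recovery libraries, a log2 fold change of 4.83 ± 0.17. EPSTI1 (3.53 ± 0.11), HELZ2 (3.40 ± 0.033) and RTP4 (3.21 ± 0.20) followed. LGALS3BP, a secreted glycoprotein, had 468, 474 and 450.2 CPM after the second pulse, against 93.7, 95.7 and 98.7 CPM in recovery cells, a log2 fold change of 2.273 ± 0.026.

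**Figure D2:**
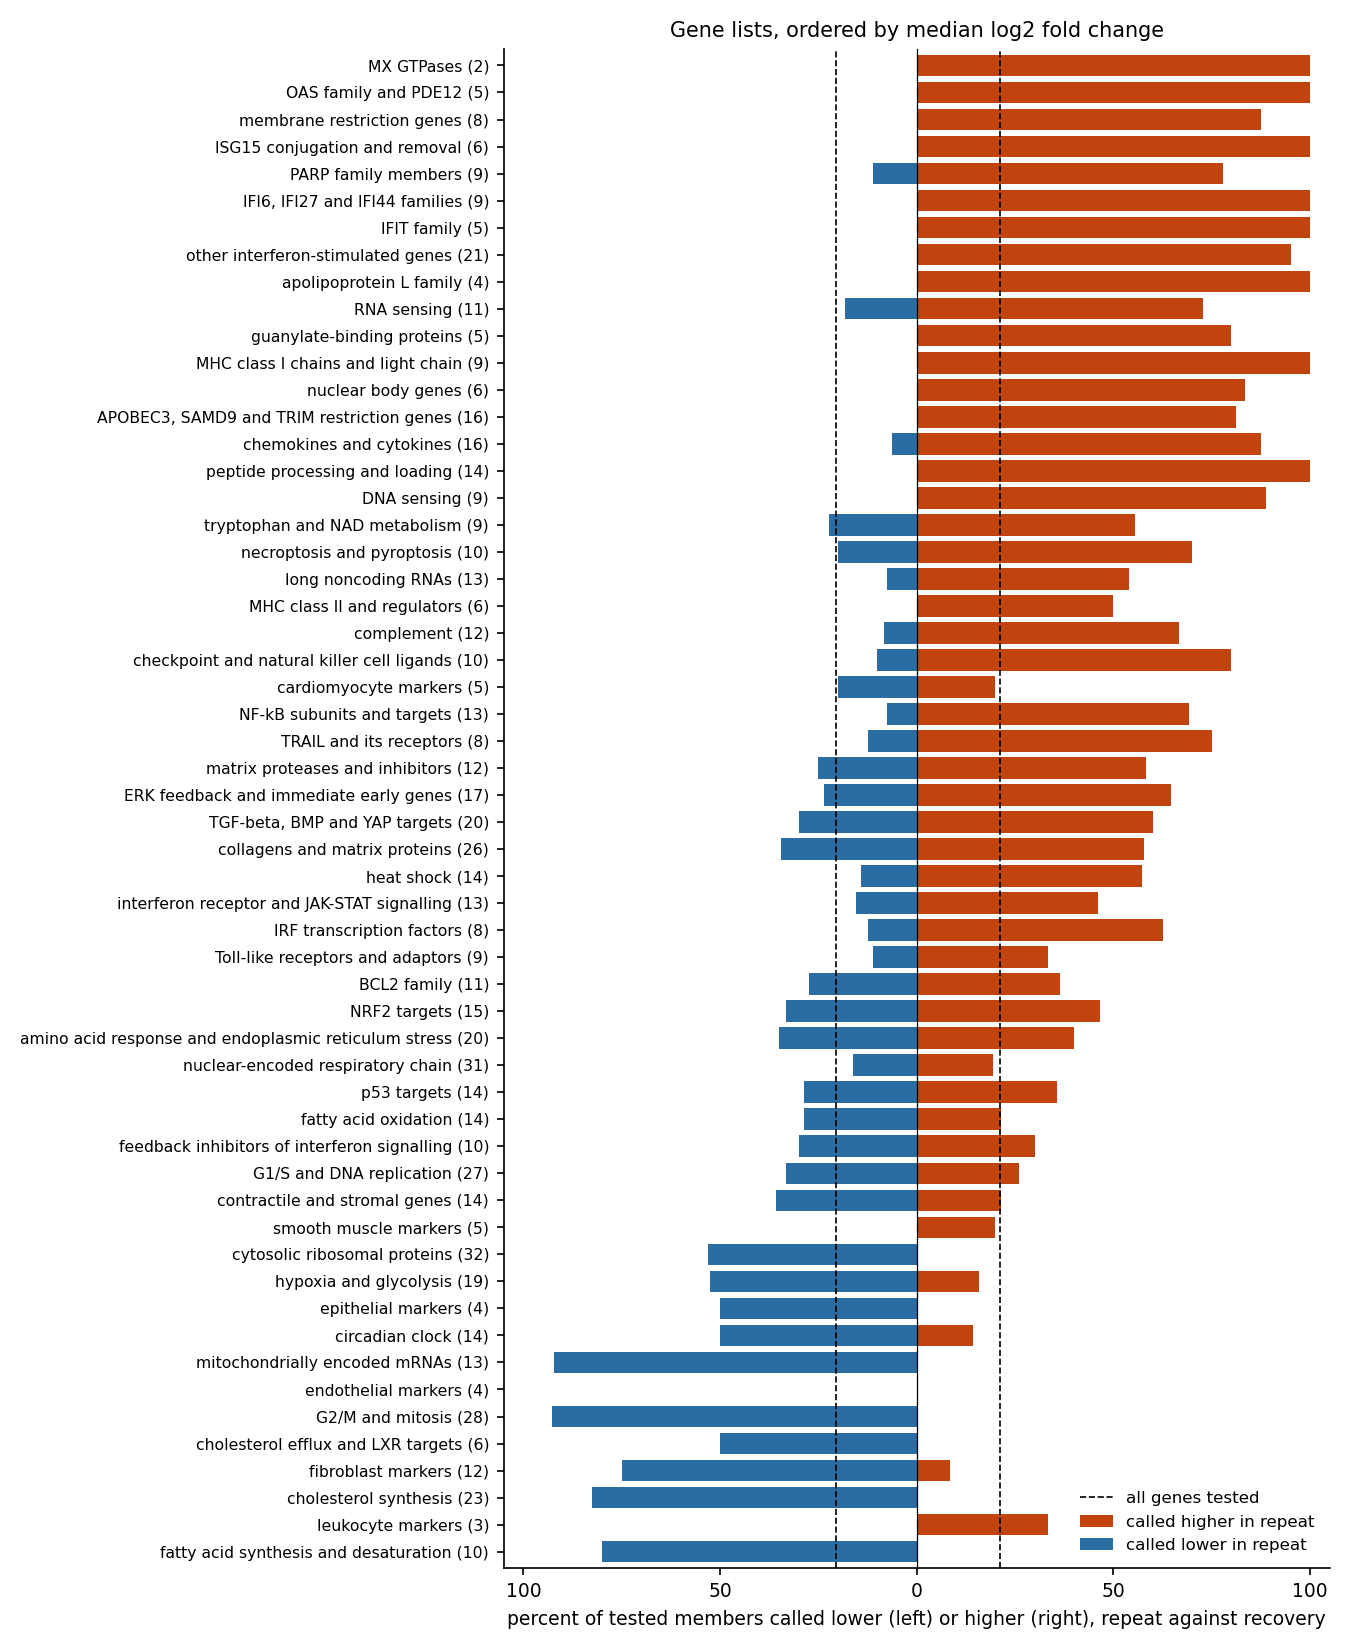
Share of the tested members of each of 56 gene lists called lower (left) and higher (right) in repeat against recovery cells, in percent, with the number tested in parentheses; dashed lines mark the share over all genes tested (20.5% lower and 21.1% higher). Lists run from the highest median log2 fold change at the top (MX GTPases, 6.76) to the lowest at the bottom (fatty acid synthesis and desaturation, -0.46), with the lists of antiviral genes in the top rows.

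Genes of RNA sensing rose in 8 of 11 cases and fell in 2, 1 of them the adaptor of the sensors. RIGI, which detects RNA with 5′ triphosphates, had 287, 277 and 297 CPM in the repeat libraries, against 49.8, 45.7 and 51.5 CPM in the recovery libraries, a log2 fold change of 2.55 ± 0.045. IFIH1, or MDA5, which detects long double-stranded RNA, had 99.3, 95.5 and 96.8 CPM after the second pulse, against 9.26, 8.21 and 9.45 CPM in recovery cells, a log2 fold change of 3.44 ± 0.064. EIF2AK2, or PKR, which halts translation on double-stranded RNA, had 483, 452 and 462 CPM in the 3 repeat libraries and 136, 134 and 132 CPM in the 3 recovery libraries, a log2 fold change of 1.80 ± 0.027. All 3 sensors were higher in every repeat library than in any recovery library. ADAR, which edits double-stranded RNA, rose as well (750.3 ± 19.1 CPM in repeat libraries, against 278 ± 2.45 CPM in recovery libraries, log2 fold change 1.43 ± 0.021). MAVS, the mitochondrial adaptor through which RIGI and IFIH1 signal, fell: it had 179, 166 and 173 CPM in the repeat libraries, against 227, 225 and 225 CPM in the recovery libraries, a log2 fold change of -0.38 ± 0.025. Genes of DNA sensing rose in 8 of 9 cases, and in 5 on log2 TPM and 5 with the length offset. SAMHD1, a hydrolase that depletes nucleotides needed by viruses, led them with 373, 376 and 374 CPM after the second pulse, against 63.1, 58.3 and 62.1 CPM in recovery cells, a log2 fold change of 2.61 ± 0.027. STING1, the adaptor of the sensor CGAS, had one of 0.47 ± 0.035, and CGAS itself one of 0.37 ± 0.045. Among 9 Toll-like receptor genes 3 rose and 1 fell. TLR3, which detects double-stranded RNA in endosomes, had 9.90, 8.11 and 8.28 CPM in the repeat libraries, against 2.08, 1.71 and 2.07 CPM in the recovery libraries, a log2 fold change of 2.16 ± 0.10, and the adaptor MYD88 had one of 1.55 ± 0.036.

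Restriction factors inside the cell rose in 13 of 16 cases (median 1.17). TRIM22, which inhibits transcription of HIV-1, had 74.3, 73.0 and 72.4 CPM in the 3 repeat libraries and 5.47, 5.67 and 5.41 CPM in the 3 recovery libraries, a log2 fold change of 3.73 ± 0.046. SAMD9, which arrests translation of poxviruses, had 426, 394 and 432 CPM in the repeat libraries, against 81.4, 76.2 and 80.9 CPM in the recovery libraries, a log2 fold change of 2.39 ± 0.033, and its neighbour SAMD9L had one of 2.62 ± 0.042. APOBEC3G, a cytidine deaminase that mutates retroviral DNA, had 23.7, 24.1 and 24.5 CPM after the second pulse, against 7.71, 8.01 and 8.37 CPM in recovery cells, a log2 fold change of 1.58 ± 0.052. APOBEC3C (0.056 ± 0.028, adjusted p = 0.12) did not pass, and the APOBEC3 genes share enough sequence for reads to be split among them. Among 9 PARP genes 7 rose and 1 fell. PARP9, which acts with the ligase DTX3L, had 191, 191 and 190.2 CPM in the repeat libraries, against 12.999, 13.3 and 12.8 CPM in the recovery libraries, a log2 fold change of 3.87 ± 0.033. DTX3L had 262, 247 and 256 CPM after the second pulse, against 30.5, 28.0 and 29.2 CPM in recovery cells, a log2 fold change of 3.13 ± 0.039. PARP14, a mono-ADP-ribosyltransferase, had one of 3.35 ± 0.066, and PARP1, the DNA repair enzyme, did not pass (0.022 ± 0.020). Among guanylate-binding proteins, which attack the membranes around intracellular microbes, 4 of 5 rose. GBP1 had 146, 151 and 151 CPM in the 3 repeat libraries and 38.3, 36.5 and 35.5 CPM in the 3 recovery libraries, a log2 fold change of 2.02 ± 0.031, and GBP2 (-0.13 ± 0.088, adjusted p = 0.247) did not pass. All 4 apolipoprotein L genes tested rose, led by APOL1, which lyses trypanosomes, with 84.0 ± 2.25 CPM in repeat libraries, against 20.5 ± 1.64 CPM in recovery libraries and a log2 fold change of 2.03 ± 0.045. Nuclear body genes rose in 5 of 6 cases. SP110 had 165, 162 and 156 CPM after the second pulse, against 23.8, 25.5 and 23.7 CPM in recovery cells, a log2 fold change of 2.73 ± 0.031, and PML, the organiser of these bodies, had one of 1.39 ± 0.025.

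Genes of antigen presentation by MHC class I rose at each step, with the chains, the transporter and the immunoproteasome all higher in repeat cells. All 9 genes of class I chains, related ligands and their regulator rose (median 1.29), as did all 14 genes of peptide processing and loading (median 1.00). HLA-B, a classical heavy chain, had 1544, 1615 and 1537 CPM in the repeat libraries, against 512, 503 and 507 CPM in the recovery libraries, a log2 fold change of 1.63 ± 0.027. B2M, the light chain shared by all class I molecules, had 1614, 1689.5 and 1626 CPM after the second pulse, against 681, 661 and 679.6 CPM in recovery cells, a log2 fold change of 1.29 ± 0.021. Both chains were already abundant in recovery cells, and every repeat library lay above every recovery library. HLA-F, a non-classical chain, had 28.8, 27.5 and 26.7 CPM in the repeat libraries, against 4.48, 5.48 and 4.74 CPM in the recovery libraries, a log2 fold change of 2.50 ± 0.072. HLA genes share long stretches of sequence, so their separate values are less certain than their common direction. TAP1, a subunit of the transporter that brings peptides into the endoplasmic reticulum, had 228, 228 and 227 CPM after the second pulse, against 33.4, 33.4 and 32.9 CPM in recovery cells, a log2 fold change of 2.78 ± 0.029. PSMB9, a catalytic subunit of the immunoproteasome, had 62.28, 62.2 and 60.3 CPM in the 3 repeat libraries and 9.03, 9.55 and 9.37 CPM in the 3 recovery libraries, a log2 fold change of 2.72 ± 0.042. The trimming enzymes ERAP1 (0.96 ± 0.037) and ERAP2 (1.06 ± 0.043) rose, and the chaperones CALR (0.39 ± 0.019), PDIA3 (0.32 ± 0.020) and CANX (0.20 ± 0.019) rose by less. NLRC5, the transactivator of class I genes, had 76.6, 71.0 and 75.5 CPM in the repeat libraries, against 31.2, 31.2 and 33.1 CPM in the recovery libraries, a log2 fold change of 1.22 ± 0.035. Of class II, HLA-DRA, HLA-DRB1, HLA-DQB1 and HLA-DMB were under the filter, and CIITA, its transactivator, did not pass (0.375 ± 0.136 CPM in repeat and 0.360 ± 0.0814 CPM in recovery libraries). HLA-DPA1 (0.40 ± 0.13) and HLA-DPB1 (0.33 ± 0.085), the chains of HLA-DP, rose slightly from low levels. CTSS, a protease of antigen processing grouped with class II, had 2.67, 2.59 and 3.01 CPM after the second pulse, against 0.762, 0.455 and 0.738 CPM in recovery cells, a log2 fold change of 2.07 ± 0.17. The call of HLA-DPA1 was lost with the length offset, on log2 TPM and without recovery replicate 3.

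Ligands for immune checkpoints and natural killer cells rose in 8 of 10 cases and fell in 1. CD274, or PD-L1, which inhibits T cells, had 20.9, 19.8 and 20.1 CPM in the repeat libraries, against 11.8, 11.5 and 10.6 CPM in the recovery libraries, a log2 fold change of 0.84 ± 0.063. PDCD1LG2, or PD-L2, had 29.2, 30.0 and 30.7 CPM after the second pulse, against 19.7, 18.7 and 18.5 CPM in recovery cells, a log2 fold change of 0.66 ± 0.043. VSIR, or VISTA, a further inhibitory ligand, went the other way with 10.2, 8.60 and 9.46 CPM in the 3 repeat libraries and 20.1, 19.96 and 18.6 CPM in the 3 recovery libraries, a log2 fold change of -1.06 ± 0.066. The genes of the PD-1 ligands and of VISTA thus changed in opposite directions. CD47, which signals to phagocytes not to engulf the cell, rose by less (71.2 ± 1.54 CPM in repeat libraries, against 53.5 ± 1.17 CPM in recovery libraries, log2 fold change 0.41 ± 0.032).

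Secreted mediators rose in 14 of 16 cases and fell in 1, mostly from low levels. CXCL8, which attracts neutrophils, had 13.9, 12.7 and 13.1 CPM in the repeat libraries, against 3.54, 4.09 and 4.20 CPM in the recovery libraries, a log2 fold change of 1.74 ± 0.091. IL6, an inflammatory cytokine, had 8.24, 7.19 and 7.79 CPM after the second pulse, against 3.43, 2.99 and 3.96 CPM in recovery cells, a log2 fold change of 1.16 ± 0.11. LIF, a cytokine of the same receptor family, had 40.9, 38.2 and 39.6 CPM in the 3 repeat libraries and 18.4, 18.9 and 18.6 CPM in the 3 recovery libraries, a log2 fold change of 1.09 ± 0.049. Repeat libraries were above recovery libraries for all 3 of these. Chemokines that interferon induces in many cells were close to 0 in recovery libraries, so no fold is given. CXCL10 had 0.239, 0.339 and 0.124 CPM in the repeat libraries, against 0.0224, 0.0650 and 0 CPM in the recovery libraries, and CXCL11 had 0.497, 0.711 and 0.598 CPM after the second pulse, against 0.0448, 0 and 0.0615 CPM in recovery cells. CXCL9 was under the filter. TNFSF13B, the B cell survival factor BAFF, had 1.251, 1.55 and 1.44 CPM in the 3 repeat libraries and 0.157, 0.0650 and 0.0410 CPM in the 3 recovery libraries. CCL2, which attracts monocytes, fell, with 16.2, 16.2 and 15.4 CPM in the repeat libraries, against 19.8, 19.1 and 21.2 CPM in the recovery libraries and a log2 fold change of -0.33 ± 0.074. NF-kB subunits and targets rose in 9 of 13 cases and fell in 1, with 4 higher on log2 TPM and 4 with the length offset. TNFAIP3, or A20, a brake on NF-kB, had 48.7, 44.6 and 50.1 CPM after the second pulse, against 16.8, 15.96 and 18.5 CPM in recovery cells, a log2 fold change of 1.48 ± 0.076. BIRC3, an inhibitor of apoptosis, had one of 1.198 ± 0.062, and BCL3, an atypical IkB protein, fell (8.02 ± 0.509 CPM in repeat and 12.9 ± 0.961 CPM in recovery libraries, log2 fold change -0.69 ± 0.063).

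Of 12 complement genes 8 rose and 1 fell. C1S, a protease of the first complement component, had 77.8, 81.3 and 81.5 CPM in the repeat libraries, against 20.4, 19.5 and 20.6 CPM in the recovery libraries, a log2 fold change of 1.99 ± 0.041. Its partner C1R had 139, 139 and 137 CPM after the second pulse, against 47.0, 43.9 and 45.2 CPM in recovery cells, a log2 fold change of 1.61 ± 0.035. CFB, a protease of the alternative pathway, had 24.2, 25.2 and 23.3 CPM in the 3 repeat libraries and 7.06, 7.06 and 8.02 CPM in the 3 recovery libraries, a log2 fold change of 1.71 ± 0.061. Genes of TRAIL, a ligand that triggers apoptosis, and its receptors rose in 6 of 8 cases and fell in 1. TNFSF10, TRAIL itself, had 3.16, 2.91 and 3.17 CPM in the repeat libraries, against 0.941, 0.411 and 0.882 CPM in the recovery libraries, a log2 fold change of 2.04 ± 0.19. Its signalling receptor gene TNFRSF10B moved by 0.16 ± 0.030, and the decoy receptor TNFRSF10D, described with the falls, by -3.09 ± 0.038. The ligand and the decoy thus moved in opposite directions. Genes of necroptosis and pyroptosis rose in 7 of 10 cases and fell in 2. MLKL, the pore-forming effector of necroptosis, had 17.6, 17.2 and 16.8 CPM after the second pulse, against 6.19, 5.80 and 5.31 CPM in recovery cells, a log2 fold change of 1.58 ± 0.062, whereas RIPK3, which activates it, was under the filter. GSDMD, the pore protein of pyroptosis, had 94.8, 99.4 and 94.5 CPM in the 3 repeat libraries and 60.4, 60.04 and 60.4 CPM in the 3 recovery libraries, a log2 fold change of 0.68 ± 0.029. CASP1, which cleaves it, had one of 1.06 ± 0.10, and CASP4 one of 0.68 ± 0.037. Of 11 BCL2 family genes 4 rose and 3 fell, and on log2 TPM 3 were called higher and 0 lower. PMAIP1, or NOXA, a promoter of apoptosis, had 122, 120.1 and 119 CPM in the repeat libraries, against 53.5, 53.2 and 58.3 CPM in the recovery libraries, a log2 fold change of 1.13 ± 0.032.

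In tryptophan and NAD metabolism 5 of 9 genes rose and 2 fell. WARS1, the tryptophan tRNA synthetase, had 169, 179 and 178 CPM in the repeat libraries, against 108, 106 and 104.6 CPM in the recovery libraries, a log2 fold change of 0.72 ± 0.025. NT5E, or CD73, the surface enzyme that makes adenosine, had 343, 335 and 340.2 CPM after the second pulse, against 179.6, 182 and 198 CPM in recovery cells, a log2 fold change of 0.86 ± 0.047. IDO1, which degrades tryptophan, was low, with 0.699, 0.954 and 0.659 CPM in the 3 repeat libraries and 0.0672, 0.173 and 0.0615 CPM in the 3 recovery libraries. CD68, a lysosomal protein used as a leukocyte marker, rose (240.1 ± 5.42 CPM in repeat and 115 ± 5.57 CPM in recovery libraries, log2 fold change 1.06 ± 0.029), while PTPRC, which defines leukocytes, did not pass (1.02 ± 0.214 CPM in repeat and 1.32 ± 0.0996 CPM in recovery libraries). NKG7, CD3E and LYZ had at most 7 counts in any repeat library and at most 3 in any recovery library.

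Of 2335 long noncoding RNAs tested, 145 rose and 239 fell, smaller shares than the 21.1% and 20.5% of all genes tested. At least 2-fold, 43 rose and 36 fell, where all genes gave 1.85% higher and 0.745% lower. BISPR, a noncoding neighbour of BST2, had 4.27, 4.69 and 4.31 CPM in the repeat libraries, against 0.426, 0.238 and 0.226 CPM in the recovery libraries, a log2 fold change of 3.90 ± 0.19. LINC02574 had 2.70, 3.06 and 2.47 CPM after the second pulse, against 0.0897, 0.152 and 0.0410 CPM in recovery cells, and PSMB8-AS1, antisense to immunoproteasome genes, had 11.6, 12.7 and 12.1 CPM in the 3 repeat libraries and 4.66, 4.79 and 3.79 CPM in the 3 recovery libraries, a log2 fold change of 1.46 ± 0.078. IRF1-AS1 had a log2 fold change of 1.48 ± 0.12. Without a stated use of the strand in counting, reads of an antisense RNA and of the gene opposite it cannot be told apart. NEAT1 (110.3 ± 8.91 CPM in repeat and 125 ± 6.51 CPM in recovery libraries) and MALAT1 (784 ± 37.7 CPM in repeat and 820.2 ± 76.4 CPM in recovery libraries), abundant nuclear RNAs, did not pass in edgeR, although NEAT1 passed in DESeq2, with upper quartile scaling and without repeat replicate 3, and MALAT1 with the length offset. Of 13 long noncoding RNAs in a list of interferon-related and abundant ones 7 rose and 1 fell.

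Falls were smaller than rises, and among the 12 falls named here 1 gene stood apart. Naming required a symbol, a mean of at least 5 CPM in the higher group and no overlap between groups. Of the 13 genes lower at least 4-fold, only TNFRSF10D and DHRS3 met this rule. TNFRSF10D (ENSG00000173530.6, chromosome 8), a decoy receptor that binds TRAIL without passing on a death signal, had 12.6, 12.5 and 13.1 CPM in the repeat libraries, against 107, 108 and 109.9 CPM in the recovery libraries. All repeat libraries lay far below all recovery libraries, and the log2 fold change was -3.09 ± 0.038 (adjusted p = 2.52e-30). DHRS3 (ENSG00000162496.9, minus strand of chromosome 1 at 12567910 to 12618210), which reduces retinal and so limits retinoic acid, had 1.75, 1.45 and 1.40 CPM after the second pulse, against 8.56, 8.38 and 8.88 CPM in recovery cells, a log2 fold change of -2.48 ± 0.10. COLEC12 (ENSG00000158270.12, minus strand of chromosome 18 at 316737 to 500722), a scavenger receptor of the collectin family, had 1.78, 1.70 and 1.88 CPM in the 3 repeat libraries and 6.19, 6.52 and 8.06 CPM in the 3 recovery libraries, a log2 fold change of -1.96 ± 0.11. Both were lowly expressed in recovery cells and lower still in each repeat library. LINC00641, a long noncoding RNA, had a log2 fold change of -1.67 ± 0.10, MTURN one of -1.56 ± 0.068 and FAXDC2, a predicted fatty acid hydroxylase, one of -1.502 ± 0.12. OLMALINC, a noncoding RNA, had 2.70, 2.38 and 2.43 CPM in the repeat libraries, against 7.22, 6.63 and 6.60 CPM in the recovery libraries, a log2 fold change of -1.44 ± 0.12. ACO1 (ENSG00000122729.19, plus strand of chromosome 9 at 32384603 to 32454769), the cytosolic aconitase that becomes an iron-regulatory protein when iron is scarce, had 54.7, 53.9 and 55.6 CPM after the second pulse, against 137, 138 and 140.4 CPM in recovery cells, a log2 fold change of -1.34 ± 0.025. CASTOR2, a relative of the arginine sensor of mTORC1, had 7.03, 6.93 and 8.57 CPM in the 3 repeat libraries and 19.1, 19.9 and 20.8 CPM in the 3 recovery libraries, a log2 fold change of -1.42 ± 0.065. SLC39A10, a zinc importer, had 27.2, 25.0 and 24.8 CPM in the repeat libraries, against 63.7, 55.8 and 61.5 CPM in the recovery libraries, a log2 fold change of -1.23 ± 0.069. LMOD1, an actin nucleator of smooth muscle, had one of -1.27 ± 0.11, and LINC01963 one of -1.23 ± 0.093. In each of the 12 genes named here the highest repeat library lay below the lowest recovery library, which the rule for naming them required. Of all genes tested, 49.4% had groups that did not overlap.

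Most genes of lipid synthesis fell. Of 10 genes of fatty acid synthesis and desaturation 8 fell (median -0.46), and of 23 genes of cholesterol synthesis 19 fell (median -0.32), against 20.5% of all genes. SCD, which makes monounsaturated fatty acids, had 391, 378 and 378 CPM in the repeat libraries, against 921, 781 and 853 CPM in the recovery libraries, a log2 fold change of -1.16 ± 0.082 (adjusted p = 3.60e-06). FADS2, a desaturase of polyunsaturated fatty acids, had 145, 143 and 134 CPM after the second pulse, against 307, 279 and 295 CPM in recovery cells, a log2 fold change of -1.06 ± 0.068. FASN, the fatty acid synthase, had 525, 496 and 498 CPM in the 3 repeat libraries and 815, 732 and 759.9 CPM in the 3 recovery libraries, a log2 fold change of -0.60 ± 0.053. In these 3 enzymes every repeat library was below every recovery library. SREBF1, the transcription factor of fatty acid synthesis, had 49.9, 49.4 and 48.3 CPM in the repeat libraries, against 113, 101 and 104 CPM in the recovery libraries, a log2 fold change of -1.10 ± 0.042. SREBF2, its relative for cholesterol synthesis, moved by less, with 187, 180.2 and 187 CPM after the second pulse, against 245, 236 and 240.5 CPM in recovery cells and a log2 fold change of -0.38 ± 0.023. INSIG1, which retains SREBP proteins in the endoplasmic reticulum, had 109.9, 110.0 and 104 CPM in the 3 repeat libraries and 209, 186 and 193 CPM in the 3 recovery libraries, a log2 fold change of -0.86 ± 0.067. Among enzymes of the mevalonate pathway MVK (-0.67 ± 0.043), LSS (-0.65 ± 0.029) and MVD (-0.53 ± 0.037) fell. Of 6 genes of cholesterol efflux 3 fell, among them the exporter ABCA1 (2.39 ± 0.361 CPM in repeat and 4.71 ± 0.502 CPM in recovery libraries, log2 fold change -0.97 ± 0.13). The call of ABCA1 was lost on log2 TPM and with the length offset.

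Mitochondrially encoded transcripts fell by small amounts in fold and made up the 6 largest falls in CPM, a scale on which long and abundant transcripts weigh most. All 37 mitochondrially encoded genes together held 4.59, 4.55 and 4.38% of counts in repeat libraries, against 5.57, 5.69 and 5.65% in recovery libraries. The means were 4.51% ± 0.110 in repeat and 5.64% ± 0.059 in recovery libraries (SD, n = 3 each), a difference of -1.13 percentage points (p = 0.1 in an exact permutation test, two-sided, which can give no smaller p with 20 splits). Of 13 mitochondrial mRNAs 12 fell (median -0.22). MT-CO3, a subunit of cytochrome c oxidase, had 2913, 2909 and 2823 CPM in the repeat libraries, against 4153, 4193 and 4141 CPM in the recovery libraries, a log2 fold change of -0.53 ± 0.022. MT-CYB, the cytochrome b of complex III, had 2851, 2898 and 2742 CPM after the second pulse, against 3891, 3887 and 3843 CPM in recovery cells, a log2 fold change of -0.45 ± 0.037. MT-ATP6, a subunit of the ATP synthase, had 3369, 3451 and 3199.5 CPM in the 3 repeat libraries and 4504, 4626 and 4513 CPM in the 3 recovery libraries, a log2 fold change of -0.45 ± 0.031. These 3 lay lower in every repeat library, and MT-ND4 (-0.20 ± 0.044) and MT-CO1 (-0.23 ± 0.025), subunits of complexes I and IV, fell by less. MT-RNR2, the large ribosomal RNA, had 5620.3, 5822 and 5794 CPM in the repeat libraries, against 8001, 8347 and 7954 CPM in the recovery libraries, a log2 fold change of -0.50 ± 0.027. Of 31 tested genes of the nuclear-encoded respiratory chain 6 rose and 5 fell, by -0.18 to 0.21 over all of them, shares close to those of all genes. On log2 TPM 2 rose and 3 fell, with the length offset 1 rose and 3 fell, and without repeat replicate 1 10 rose.

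Genes of mitosis fell together, each by a small amount. Of 28 genes of G2/M and mitosis 26 fell, with a median log2 fold change of -0.25. MKI67, a marker of dividing cells, had 813, 723 and 788 CPM in the repeat libraries, against 1012, 992 and 981 CPM in the recovery libraries, a log2 fold change of -0.36 ± 0.031. TOP2A, which untangles chromosomes, had 470.2, 473 and 481 CPM after the second pulse, against 629, 636 and 618 CPM in recovery cells, a log2 fold change of -0.40 ± 0.022. PLK1, a mitotic kinase, had 266, 269 and 260.0 CPM in the 3 repeat libraries and 349, 341 and 341 CPM in the 3 recovery libraries, a log2 fold change of -0.37 ± 0.021. For these 3 the repeat libraries were all below the recovery libraries. KIF20A, a motor of cell division, had a log2 fold change of -0.41 ± 0.022 and ASPM, a spindle protein, one of -0.44 ± 0.060, while BUB1 (-0.047 ± 0.026) and TTK (0.0062 ± 0.031), kinases of the spindle checkpoint, did not pass. Genes of G1/S and DNA replication went both ways, 7 of 27 higher and 9 lower, and on log2 TPM and with the length offset 4 and 5. Over all genes tested 21.1% were higher and 20.5% lower. CCND1, the cyclin D1 of early G1, rose, with 510.2, 508 and 517 CPM in the repeat libraries, against 327, 336 and 349 CPM in the recovery libraries and a log2 fold change of 0.60 ± 0.037. Ribosomal protein genes fell in 17 of 32 cases with log2 fold changes down to -0.24, and in 9 on log2 TPM and 11 with the length offset.

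**Figure D3:**
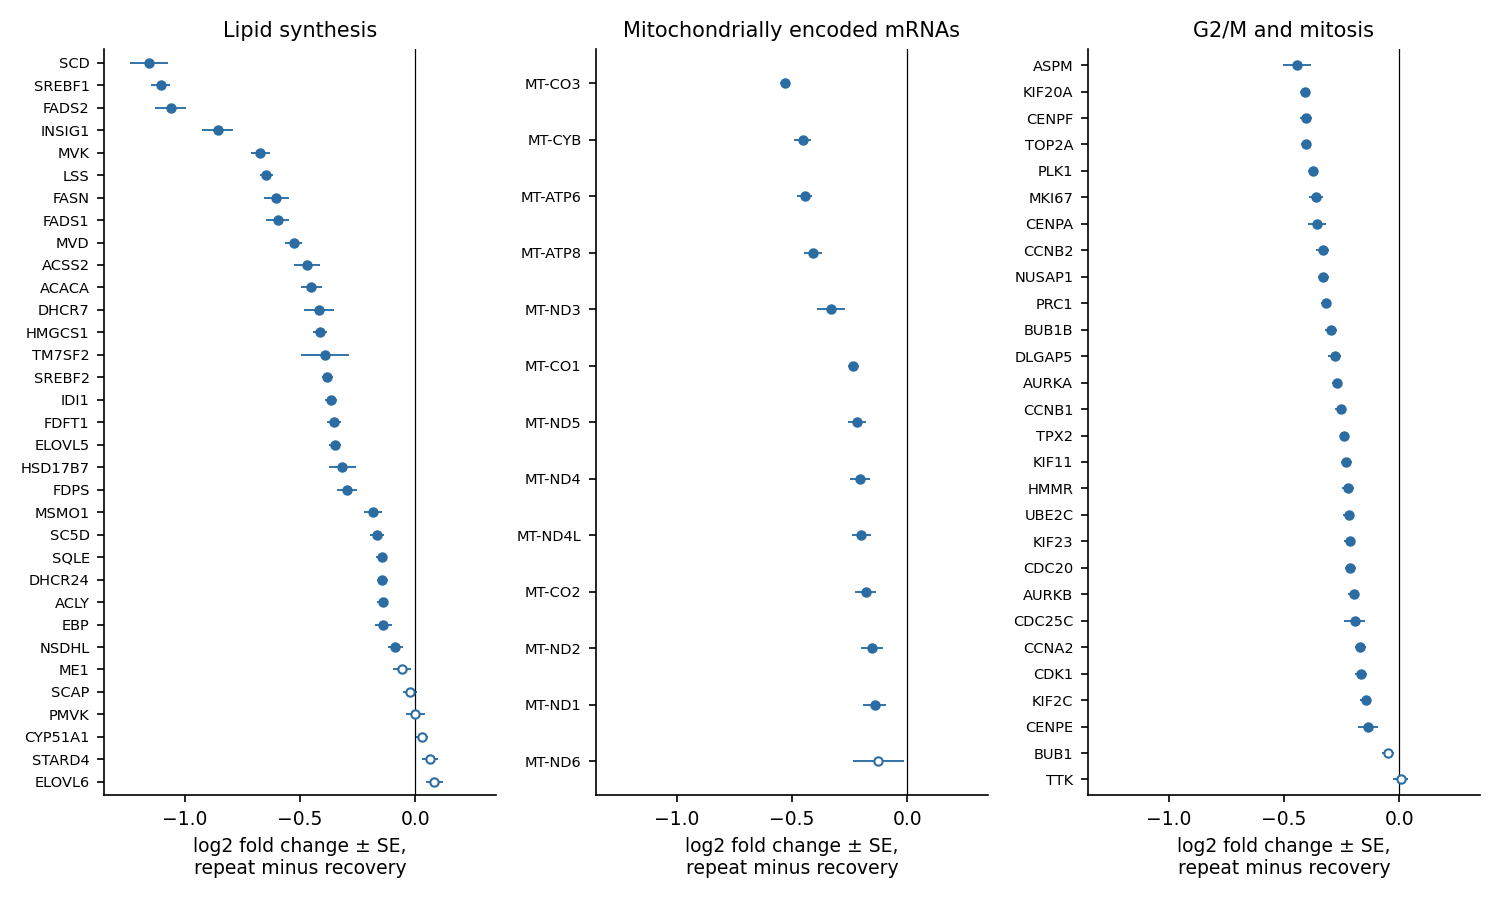
Log2 fold change (repeat minus recovery) with its SE for each tested gene of lipid synthesis, the mitochondrially encoded mRNAs and the G2/M list; filled points passed the threshold and open points did not. SCD lies at -1.16, MT-CO3 at -0.53 and ASPM at -0.44, the lowest of each panel.

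Matrix and stromal genes went both ways, where over all genes tested 21.1% rose and 20.5% fell. Fibroblast surface and matrix markers fell in 9 of 12 cases and rose in 1. COL1A1, the main chain of collagen I, had 3301, 3185 and 3078 CPM in the repeat libraries, against 4209, 4196 and 4125 CPM in the recovery libraries, a log2 fold change of -0.39 ± 0.026. FAP, a surface protease of activated fibroblasts, had 38.1, 37.0 and 37.6 CPM after the second pulse, against 56.3, 54.96 and 58.1 CPM in recovery cells, a log2 fold change of -0.59 ± 0.035. DDR2, a collagen receptor, had 198, 194 and 191 CPM in the 3 repeat libraries and 278, 264 and 270.0 CPM in the 3 recovery libraries, a log2 fold change of -0.48 ± 0.027, and PDGFRB, a growth factor receptor, had one of -0.48 ± 0.029. Every repeat library was below every recovery library in these 4 genes, while VIM, the intermediate filament vimentin, rose (0.17 ± 0.021). Fibroblast markers thus moved with the other falls described here, and their part in those was not tested. Of 26 collagens and matrix proteins 15 rose and 9 fell. FN1, fibronectin, had 7012, 6355 and 6933 CPM in the repeat libraries, against 5657, 5524 and 5746 CPM in the recovery libraries, a log2 fold change of 0.26 ± 0.035 that was one of the 6 largest rises in CPM. CCN2, a matricellular growth factor, had 489, 482 and 491 CPM after the second pulse, against 295, 292 and 292 CPM in recovery cells, a log2 fold change of 0.73 ± 0.044. COL12A1, a collagen of fibril surfaces, fell, with 226, 203 and 213 CPM in the 3 repeat libraries and 352, 322 and 344 CPM in the 3 recovery libraries and a log2 fold change of -0.67 ± 0.043. ADAMTS1, a secreted matrix protease, had 383, 358 and 387 CPM in the repeat libraries, against 170.1, 170.0 and 175 CPM in the recovery libraries, a log2 fold change of 1.13 ± 0.029. Matrix proteases and inhibitors rose in 7 of 12 cases and fell in 3, with 4 higher on log2 TPM. TGF-beta, BMP and YAP targets rose in 12 of 20 cases and fell in 6, with 3 lower on log2 TPM and with the length offset. ANKRD1, a stress-responsive muscle protein and YAP target, had 25.3, 25.9 and 24.3 CPM in the 3 repeat libraries and 6.66, 7.64 and 6.60 CPM in the 3 recovery libraries, a log2 fold change of 1.85 ± 0.069, and INHBA, a subunit of activin, had one of 1.18 ± 0.031.

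Stress and metabolic lists were mixed, and many of their calls depended on the scale. Over all genes tested 21.1% rose and 20.5% fell, so a few calls in each direction are no result about a list. Of 14 heat shock genes 8 rose and 2 fell. DNAJA1, a co-chaperone, had 482, 492 and 511 CPM in the repeat libraries, against 352, 351 and 344 CPM in the recovery libraries, a log2 fold change of 0.50 ± 0.023, and HSPA8, its constitutive HSP70 partner, had one of 0.19 ± 0.020. In the list of amino acid response and endoplasmic reticulum stress 8 of 20 rose and 7 fell, with 5 higher with the length offset. HSPA5, the chaperone BiP, had 911, 919 and 912 CPM after the second pulse, against 723, 707 and 707 CPM in recovery cells, a log2 fold change of 0.36 ± 0.019, whereas SLC7A11, the cystine importer, had 25.5 ± 0.942 CPM in repeat and 41.4 ± 1.85 CPM in recovery libraries and fell (-0.70 ± 0.047). Of 19 hypoxia and glycolysis genes 10 fell and 3 rose, with 6 lower on log2 TPM and with the length offset. HK2, a hexokinase, was among those that rose, with 92.3, 91.6 and 91.5 CPM in the 3 repeat libraries and 61.99, 60.5 and 60.3 CPM in the 3 recovery libraries and a log2 fold change of 0.59 ± 0.028. NDRG1, a hypoxia marker, had 26.5 ± 0.391 CPM in repeat and 39.4 ± 1.21 CPM in recovery libraries and fell (-0.57 ± 0.038). NRF2 targets rose in 7 of 15 cases and fell in 5, with 2 higher on log2 TPM, 3 with the length offset, and 4 with upper quartile scaling or without recovery replicate 1, recovery replicate 2 or repeat replicate 1. p53 targets rose in 5 of 14 cases and fell in 4, but 0 were called higher on log2 TPM and 0 with the length offset. CCNG1, a p53 target, fell (61.6 ± 3.56 CPM in repeat and 87.2 ± 0.568 CPM in recovery libraries, log2 fold change -0.50 ± 0.033), as did ZMAT3 (-0.91 ± 0.048). Of 14 clock genes 7 fell and 2 rose, with 2 lower on log2 TPM and 3 with the length offset. PER3, a period protein, had 28.2, 26.4 and 28.2 CPM in the repeat libraries, against 41.7, 41.1 and 43.0 CPM in the recovery libraries, a log2 fold change of -0.61 ± 0.036, and NR1D2, a repressor of the clock, one of -0.41 ± 0.031. Of 17 ERK feedback and immediate early genes 11 rose and 4 fell, with 1 lower on log2 TPM and with the length offset and 2 without recovery replicate 2, recovery replicate 3 or repeat replicate 2. SPRY4, an inhibitor of ERK signalling, had 40.3, 37.8 and 40.3 CPM after the second pulse, against 21.7, 21.0 and 24.1 CPM in recovery cells, a log2 fold change of 0.83 ± 0.056. Genes of fatty acid oxidation rose in 3 and fell in 4 of 14 cases, and on log2 TPM in 1 and 2. Contractile and stromal genes rose in 3 and fell in 5 of 14 cases, and smooth muscle markers rose in 1 of 5, TAGLN (0.30 ± 0.025). Endothelial markers had adjusted p from 0.3 to 0.518, and of 4 epithelial markers KRT8 (-0.18 ± 0.035) and KRT18 (-0.33 ± 0.022), keratins of simple epithelia, fell. The call of KRT8 was lost on log2 TPM and with the length offset.

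The second response was next set against the first, that of acute against vehicle cells, which shares no library with it. Acute and vehicle libraries are labelled 24 h, recovery libraries day 6 and repeat libraries day 7, and no vehicle library carries a later label. Earlier exposure and time in culture therefore cannot be told apart in these differences or in recovery against vehicle. The first pulse gave 7938 calls (43.8%), 4049 higher and 3889 lower. Of the genes called, 6125 were called in both pulses, which is 81.2% of the calls of the second and 77.2% of the calls of the first, and 6115 of these had the same sign. Across the 18119 genes the log2 fold changes of the pulses had a Pearson r of 0.662 and a Spearman rho of 0.687; genes are not independent, and the value describes these libraries only. The difference between the responses, (repeat minus recovery) minus (acute minus vehicle), was tested in the same fit and passed for 118 genes (0.651%), 40 of them with a difference above 0 (0.221%) and 78 below 0 (0.43%). Beyond a difference of 1.5-fold, tested by glmTreat, there were 3 (0.0166%). The count was 5 on log2 TPM, 11 with the length offset, 235 in DESeq2 and 333 without a count filter. Leaving out 1 library gave 51 to 348, the lowest without acute replicate 3 and the highest without repeat replicate 1. A gene that failed this test is not shown to have responded alike to both pulses.

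**Figure D4:**
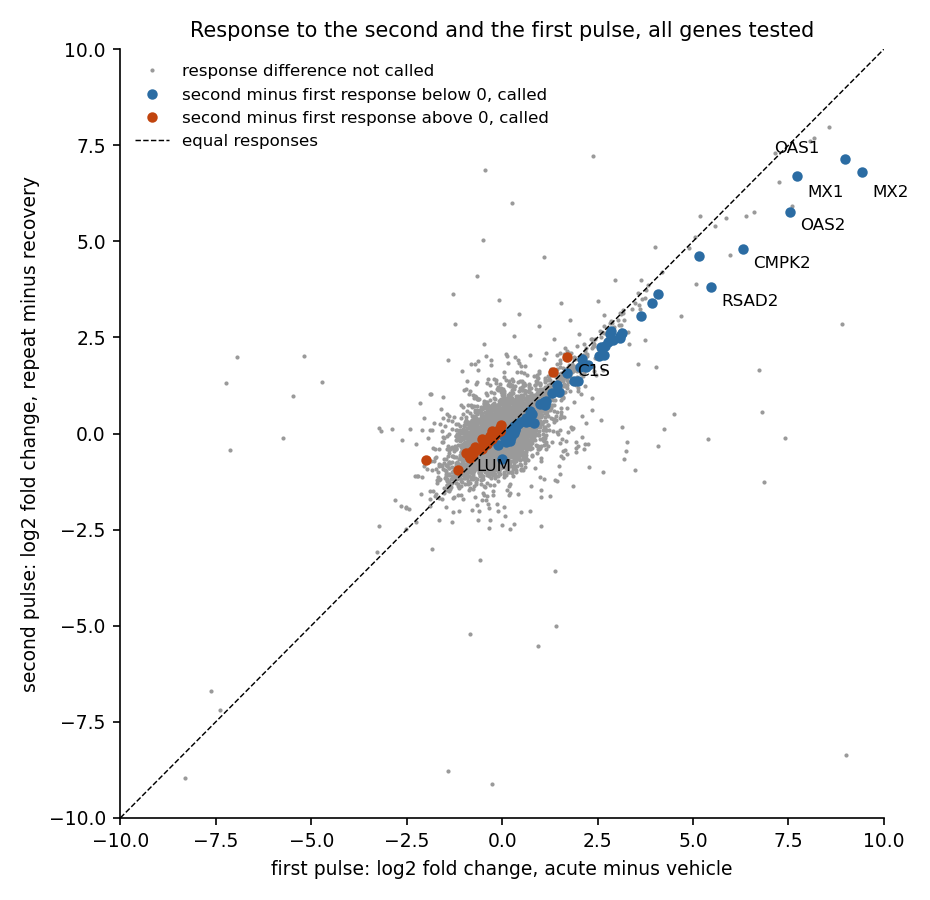
Log2 fold change after the second pulse (repeat minus recovery) against that after the first pulse (acute minus vehicle) for all 18119 genes tested; blue points have a called response difference below 0 and orange points one above 0, and the dashed line marks equal responses. MX2, OAS1, OAS2, RSAD2, CMPK2 and MX1 lie below the line, while LUM and C1S lie above it.

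The 8 largest negative differences were all antiviral genes, and each stood higher in recovery than in vehicle cells. MX2 had 271, 261 and 267 CPM in repeat and 3.21, 1.82 and 2.15 CPM in recovery libraries, 217, 216 and 225 CPM in acute and 0.508, 0.158 and 0.238 CPM in vehicle libraries. Its log2 fold change was 6.81 after the second pulse and 9.42 after the first, a difference of -2.61 ± 0.36 (adjusted p = 0.0151). Repeat against acute gave a log2 fold change of 0.28 ± 0.052, which passed (adjusted p = 0.0199), while recovery against vehicle gave 2.89 ± 0.35. OAS1 had 290.0, 289 and 287 CPM in repeat and 2.11, 1.99 and 2.03 CPM in recovery libraries, 217, 218 and 222 CPM in acute and 0.578, 0.181 and 0.498 CPM in vehicle libraries. Its fold changes were 7.14 and 8.97, a difference of -1.83 ± 0.18 (adjusted p = 8.15e-07), with repeat against acute at 0.40 ± 0.027 and recovery against vehicle at 2.23 ± 0.18. OAS2 had 637, 619.8 and 619.6 CPM in repeat and 11.05, 10.96 and 12.3 CPM in recovery libraries, 587, 592 and 583 CPM in acute and 3.14, 3.10 and 3.23 CPM in vehicle libraries. Its fold changes were 5.77 and 7.54, a difference of -1.77 ± 0.065 (adjusted p = 1.40e-16), with repeat against acute at 0.091 ± 0.021 and recovery against vehicle at 1.86 ± 0.061. In these 3 genes repeat libraries stood above the acute libraries, and recovery libraries stood above the vehicle libraries. Each of these differences passed the threshold. RSAD2 reached a higher level after the second pulse, with 31.1, 30.1 and 31.2 CPM in repeat and 2.53, 1.69 and 2.34 CPM in recovery libraries, 16.6, 15.1 and 18.0 CPM in acute and 0.420, 0.317 and 0.368 CPM in vehicle libraries. Its difference was -1.65 ± 0.22 (adjusted p = 0.000129), with repeat against acute at 0.89 ± 0.062 and recovery against vehicle at 2.54 ± 0.20. CMPK2 followed, with 30.3, 30.3 and 30.7 CPM in repeat and 1.10, 0.866 and 1.29 CPM in recovery libraries, 21.2, 20.7 and 21.7 CPM in acute and 0.298, 0.226 and 0.260 CPM in vehicle libraries. Its difference was -1.51 ± 0.21, with repeat against acute at 0.52 ± 0.048 and recovery against vehicle at 2.03 ± 0.20. MX1 (-1.02 ± 0.14), IFIT3 (-0.64 ± 0.050) and OASL (-0.63 ± 0.061) completed the 8. MX1 was level after the pulses, with 802 ± 11.4 CPM in repeat and 772 ± 9.05 CPM in acute libraries, but stood at 7.68 ± 0.433 CPM in recovery and 3.55 ± 0.977 CPM in vehicle libraries. These 4 groups enter all of these differences, so the values of repeat against acute and of recovery against vehicle are not independent evidence for them. Of the 8, MX2, OAS2 and OASL kept their call in every alternative fit, OAS1, CMPK2 and IFIT3 lost it on log2 TPM and with the length offset, and MX1 and RSAD2 lost it on log2 TPM, where RSAD2 stood at 0.033. MX1 also lost it without acute replicate 3, recovery replicate 1 or recovery replicate 3.

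**Figure D5:**
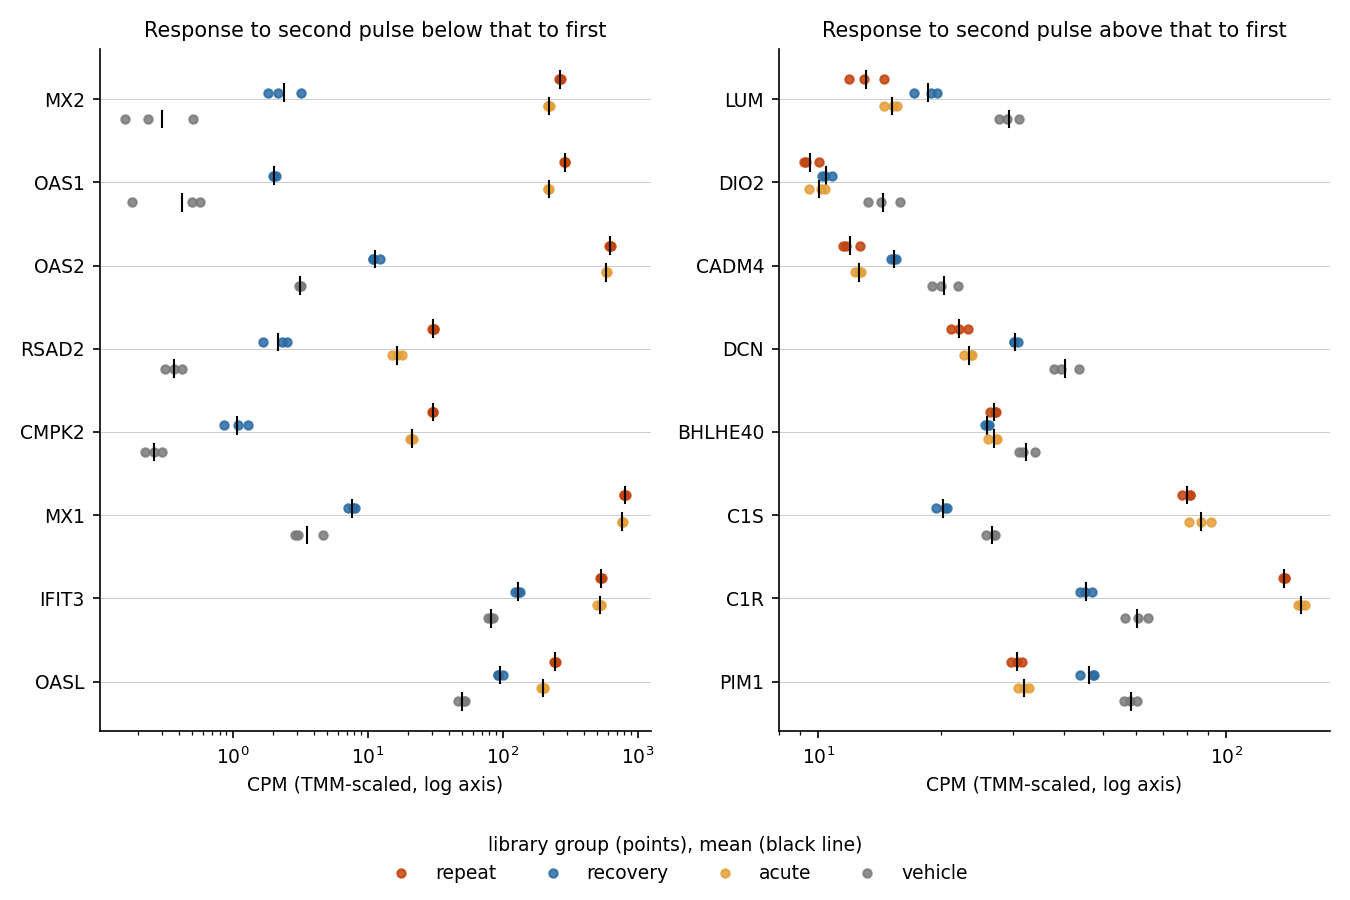
CPM (TMM-scaled, log axis) in each library of the 4 groups (points) with the group mean (black line), for the 8 genes with the most negative (left) and the 8 with the most positive (right) difference between the second and the first response. On the left recovery libraries lie above vehicle libraries for every gene, as with MX2 at 2.39 CPM in recovery and 0.302 CPM in vehicle libraries; on the right they lie below them, as with LUM at 18.5 CPM in recovery and 29.3 CPM in vehicle libraries.

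The 8 largest positive differences were smaller, and in all of them recovery cells stood below vehicle cells. Recovery and vehicle libraries enter these differences too, so that order is not independent evidence for them. LUM, a proteoglycan that binds collagen and is 1 of the fibroblast markers, had 12.9, 14.5 and 11.9 CPM in repeat and 19.5, 17.1 and 18.9 CPM in recovery libraries, 15.6, 15.3 and 14.5 CPM in acute and 31.0, 29.1 and 27.8 CPM in vehicle libraries. It fell after both pulses, by less after the second (-0.49) than after the first (-0.95), a difference of 0.46 ± 0.091 (adjusted p = 0.0218). DCN, a related proteoglycan and marker, had 22.1, 21.2 and 23.3 CPM in repeat and 30.2, 30.9 and 30.2 CPM in recovery libraries, 23.6, 22.8 and 23.9 CPM in acute and 43.7, 37.7 and 39.4 CPM in vehicle libraries, a difference of 0.33 ± 0.067 (adjusted p = 0.0186). Levels after either pulse were close in both, at 13.1 ± 1.31 CPM in repeat and 15.1 ± 0.573 CPM in acute libraries for LUM. C1S rose after both pulses and by more after the second, with 77.8, 81.3 and 81.5 CPM in repeat and 20.4, 19.5 and 20.6 CPM in recovery libraries, 86.8, 81.0 and 91.7 CPM in acute and 27.0, 25.8 and 27.1 CPM in vehicle libraries, a difference of 0.29 ± 0.059 (adjusted p = 0.0151). C1R moved with it (0.28 ± 0.048, adjusted p = 0.00458), with 139 ± 1.12 CPM in repeat, 45.3 ± 1.55 CPM in recovery, 153 ± 3.01 CPM in acute and 60.5 ± 3.90 CPM in vehicle libraries. PIM1, a kinase induced by STAT signals, had a difference of 0.28 ± 0.055 and the adhesion protein CADM4 one of 0.35 ± 0.079. PIM1 fell after both pulses, by less after the second (-0.59) than after the first (-0.87), as did CADM4 (-0.35 and -0.70). The clock repressor BHLHE40 had a difference of 0.32 ± 0.058 and DIO2, which activates thyroid hormone, one of 0.39 ± 0.093. Both fell after the first pulse (-0.27 and -0.53) and did not pass after the second (0.055 and -0.14, adjusted p = 0.317 and 0.104). None of the 8 passed on log2 TPM or with the length offset. BHLHE40, C1R and PIM1 passed whichever library was left out. C1S lost its call without vehicle replicate 1 or recovery replicate 2, DCN without vehicle replicate 1, acute replicate 2, recovery replicate 1, recovery replicate 3 or repeat replicate 3, and LUM without vehicle replicate 1, vehicle replicate 2, acute replicate 2, acute replicate 3 or recovery replicate 3. CADM4 and DIO2 kept their calls only where vehicle replicate 3 or repeat replicate 1 was the library left out.

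By list, negative differences were called in 4 of 5 genes of the OAS family and PDE12, 3 of 5 IFIT genes, 3 of 6 genes of ISG15 conjugation and 4 of 11 genes of RNA sensing, against 0.43% of all genes. With the length offset these counts were 2, 2, 1 and 1, and on log2 TPM 2, 0, 1 and 1. In DESeq2, which gives some genes no adjusted p, they were 4, 3, 1 and 2. ISG15 itself had 707 ± 32.6 CPM in repeat and 67.0 ± 1.65 CPM in recovery libraries, 708 ± 12.8 CPM in acute and 46.4 ± 1.22 CPM in vehicle libraries, a difference of -0.53 ± 0.044. Genes of cholesterol synthesis had 5 positive differences among 23 tested, against 0.221% of all genes, but 0 on log2 TPM, 0 with the length offset, 10 in DESeq2 and 8 without a count filter. Leaving out 1 library gave 0 to 5, with 0 without acute replicate 2, acute replicate 3, recovery replicate 2 or recovery replicate 3 and 1 without vehicle replicate 1, repeat replicate 2 or repeat replicate 3. Without acute replicate 1 or vehicle replicate 2 it was 3. LSS, the lanosterol synthase, had 133 ± 1.97 CPM in repeat and 208 ± 6.36 CPM in recovery libraries, 142 ± 3.95 CPM in acute and 252 ± 10.2 CPM in vehicle libraries, a difference of 0.18 ± 0.040 that was lost on log2 TPM, with the length offset, and without vehicle replicate 1, acute replicate 2, acute replicate 3, recovery replicate 2, recovery replicate 3, repeat replicate 2 or repeat replicate 3. Of the largest rises of the second pulse, IFI44L (-0.61 ± 0.22, adjusted p = 0.285), BST2 (-0.47 ± 0.33, adjusted p = 0.689) and IFI27 (-0.46 ± 0.29, adjusted p = 0.64) had differences below 0 that did not pass. USP18, the feedback inhibitor, had 136 ± 3.15 CPM in repeat and 2.50 ± 0.340 CPM in recovery libraries, 126 ± 0.577 CPM in acute and 1.251 ± 0.491 CPM in vehicle libraries, and its difference was -0.84 ± 0.20 (adjusted p = 0.118), which passed in limma-voom and without a count filter. STAT2 had a difference of -0.036 ± 0.049 (adjusted p = 0.863), IRF9 one of 0.12 ± 0.051 (adjusted p = 0.408) and TNFRSF10D one of 0.18 ± 0.059 (adjusted p = 0.21). None of these 3 passed the threshold.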

How the data were processed

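Poly(A) RNA of AC16 cells was sequenced from stranded libraries, per the labels' protocols, in 4 groups of 3 libraries that are stated to be independent biological replicates. Reads were trimmed with Trim Galore 0.6.10 and cutadapt 4.3, aligned with STAR 2.7.11a to GRCh38.p13 and counted with featureCounts 2.0.3, per the submitters' processing notes, which also name Picard 2.27.5 and edgeR. The sources used here do not give the strand setting of the counting. The authors deposited estimated counts per gene, 25.49% of whose values above 0 are not whole, and TPM, which the authors scaled for gene length and depth. The deposited estimated counts were rounded to whole numbers for the tests. Of 60649 gene identifiers, 60463 matched GENCODE 44, from which symbols and GRCh38 coordinates were taken. No column of values was without a sample.

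The main test was edgeR's quasi-likelihood F test (edgeR 4.0.16 in R 4.3.3, robust, TMM scaling, two-sided) on all 12 libraries, with 1 mean for each group and no other term, after edgeR's filter on low counts left 18119 genes. P-values were adjusted by Benjamini-Hochberg over all genes tested and called under 0.05. CPM values are TMM-scaled, and ± after a CPM is its SD over 3 libraries. The value after a log2 fold change, called SE, is that change divided by the square root of its F statistic. It is too small where the change is large and a group has few counts. For IFI44L it was 0.062 for the second response and 0.065 for the first, but 0.22 for their difference. The procedure was run on simulated data with known changes in few genes and the same spread for every gene. That setting differs from these data, so the run does not bear on the number of calls made here. Alternatives were other scalings, no count filter, limma-voom and limma on log2(TPM + 0.5) (limma 3.58.1), DESeq2 1.42.0, an offset for the implied gene length, the 6 libraries alone, the replicate number as a block and each library left out. Same-numbered repeat and recovery libraries had correlations of their deviations from the group means of -0.082 to 0.03 over 3 pairs, so the numbers were not taken to pair them.

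The members and the 56 gene lists were chosen with earlier results of these data known, so lists are described by counts and medians with no test. Genes were named by rule. Among those called, with a mean of at least 5 CPM in the higher group and no overlap between groups, the rule took the 12 largest rises and falls in log2 fold change and the 6 largest in CPM. For the difference between the responses it took the 8 largest in each direction. In each list it allowed the 6 members with the largest change and any member of lists of 12 or fewer, and it always took the main signalling genes. APOBEC3C, BUB1, CALR, CANX, CCL2, ERAP1, IFNGR2, JAK2, LGALS3BP, LIF, MALAT1, NEAT1, PDIA3, SREBF2, STAT3, STAT5A and TTK were chosen after their values were seen. Genes that pass a filter on low counts through 1 group only are bound to differ, and counts over lists cover tested members only. Some genes are not reported here and were left out of the lists.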

Additional observations from a re-analysis of the deposited data

Results flagged for a closer look

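The response to the second pulse differed from the response to the first in 118 genes, by the test of the difference itself in edgeR's quasi-likelihood fit. In 9 antiviral genes that passed, the second response was smaller on the log2 scale: the difference was -2.61 for MX2, -1.83 for OAS1, -1.77 for OAS2, -1.65 for RSAD2, -1.51 for CMPK2, -1.02 for MX1, -0.64 for IFIT3, -0.63 for OASL and -0.53 for ISG15, although RSAD2 stood at 0.033 on log2 TPM. It lay above 0 for LUM (0.46), DIO2 (0.39), CADM4 (0.35), DCN (0.33), BHLHE40 (0.32), C1S (0.29), C1R (0.28), PIM1 (0.28) and LSS (0.18). Among these, C1S and C1R rose after both pulses, by more after the second. LUM, CADM4, DCN, PIM1 and LSS were lower after both pulses, by less after the second. DIO2 and BHLHE40 fell after the first pulse and did not pass after the second. All these genes were picked by the same test that gave the count, and recovery and vehicle libraries enter each difference as the cells without that pulse, since no library was taken just before a pulse. By their labels recovery and vehicle libraries also differ in time in culture, which cannot be told apart from earlier exposure. MX2 stood at 2.39 ± 0.723 CPM in recovery and 0.302 ± 0.183 CPM in vehicle libraries (SD, n = 3 each).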

How the results depend on the processing

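Of 177 named genes called between repeat and recovery cells, 170 kept their call and direction in every alternative that gave a value, and ABCA1, CH25H, GATA4, HLA-DPA1, KRT8, PDE12 and TYK2 did not. The count of 7546 genes fell to 3971 with the length offset and to 3812 on log2 TPM, and lay between 6643 in DESeq2 and 7565 in the other fits with all libraries of the comparison. For the first pulse the 7938 calls became 4417 with the length offset and 4324 on log2 TPM. Beyond a fold limit of 1.2 instead of 1.5 there were 1598 genes in place of 423, and beyond 2 there were 194. The 118 genes whose responses differed became 333 without a count filter, 11 with the length offset, 5 on log2 TPM and 235 in DESeq2, which shared 72 of them. RSAD2 turned from -1.65 to 0.033 in that difference on log2 TPM, where 0.5 was added to its mean of 0.551 TPM in recovery libraries. The cause of these changes was not tested. Without a filter 36549 genes were tested in place of 18119. Of 18 named genes called in the difference, 4 kept their call in every alternative that gave a value: MX2, OAS2, OASL and ISG15.

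Leaving out 1 library gave 6820 to 7221 calls between repeat and recovery, 7028 to 7387 between acute and vehicle, 51 to 348 in the difference, and -1.17 to -1.07 percentage points in the mitochondrial share. With replicate number as a block, 7565 genes were called between repeat and recovery and 160 in the difference. Same-numbered libraries of all groups had correlations of -0.082 to 0.076. For vehicle with acute they were 0.057, 0.076 and 0.055, and other-numbered pairs lay from -0.05 to -0.004. For vehicle with repeat they were 0.025, 0.043 and 0.055, and other-numbered pairs lay from -0.039 to -0.005. For acute with repeat they were 0.01, 0.062 and -0.008, and those with a recovery library lay from -0.082 to 0.03. Whether same-numbered libraries share more than a number was not tested. Genes under 1 CPM in recovery libraries, such as IFI44L, BST2 and IFI27, have few counts there, which limits their fold changes. The SE printed for such genes is too small.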
